A study of Homo sapiens with 9 samples.

Results

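The secretory granule genes described here are CHGA, CHGB, SCG2, SCG5, VGF, NPY and CPE, and they were read from every probe set that the platform's probe-to-gene table assigns to 1 of these symbols. That gave 1 probe set for each of the 7 genes, out of 7713 genes named by a single symbol and 8746 probe sets on the array that are not manufacturer's controls. All 7 lay above the intensity filter, a mean log2 value over 9 arrays above 5.95, which kept 5830 probe sets for testing. The rule used symbols and no measured value.

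LAN-5 is an established cell line from a human neuroblastoma, a tumour of the sympathetic lineage, and its RNA was hybridised as biotin-labelled cRNA to 9 Affymetrix 1-colour arrays. Of these, 3 arrays came from untreated cells, which received culture medium alone, 3 from cells given the protein S100B at 0.5 nM and 3 from cells given S100B at 5 µM. S100B is a calcium-binding protein released by astrocytes that binds the receptor RAGE. The series design calls the 3 arrays of a group biological replicates, but all groups share 1 cell line, the length of treatment is not given in the sources used here, and the labels do not say whether replicates were separate cultures, so p-values measure the spread between these samples.

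Neuroendocrine cells and sympathetic neurons store peptides in large dense-core granules, which release their content when calcium rises. Granins are acidic proteins that aggregate in the trans-Golgi network, help granules to form and are cut at pairs of basic residues into smaller peptides. Chromogranins and neuropeptide Y are known products of chromaffin cells and of neuroblastic tumours. Many granin genes are known to answer cyclic AMP through a cAMP response element, a short DNA motif near the start site that binds CREB, and they are kept off outside neuroendocrine cells by the repressor REST.

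The regions just before the start sites are shown because they carry that element in some of these genes and not in others. RefSeq windows on GRCh38.p14, from 250 bases before to 50 after a gene's start, were found for 5 of the 7 genes. The motif TGACGTCA, which reads the same on both strands, was searched, as was its 5-base core TGACG on both strands, which lies inside TGACGTCA wherever that occurs. The stretches below are written 5′ to 3′ along the gene and end before the start site, which is counted as +1. They run from -120 to -1, except that of CPE, which runs from -230 to -91. Capitals mark the full motif where there is one and otherwise the core.
CHGA: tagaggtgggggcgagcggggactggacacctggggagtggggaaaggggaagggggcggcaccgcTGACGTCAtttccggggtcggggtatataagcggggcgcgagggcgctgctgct
VGF: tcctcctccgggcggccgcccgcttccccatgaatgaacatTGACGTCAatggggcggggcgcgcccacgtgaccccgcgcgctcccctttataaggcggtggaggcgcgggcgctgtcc
SCG5: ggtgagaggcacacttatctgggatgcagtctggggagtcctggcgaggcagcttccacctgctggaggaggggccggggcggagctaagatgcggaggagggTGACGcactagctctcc
CPE: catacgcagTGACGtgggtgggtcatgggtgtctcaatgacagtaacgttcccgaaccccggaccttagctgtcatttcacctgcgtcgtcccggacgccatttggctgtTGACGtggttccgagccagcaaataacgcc
NPY: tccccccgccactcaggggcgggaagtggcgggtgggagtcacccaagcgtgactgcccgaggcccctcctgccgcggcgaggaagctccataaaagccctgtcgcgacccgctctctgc

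The CHGA stretch is chr14:92923030-92923149 on the plus strand and the VGF stretch chr7:101165570-101165689 on the minus strand. The others, all on the plus strand, are SCG5 at chr15:32641590-32641709, CPE at chr4:165378778-165378917 and NPY at chr7:24284070-24284189. The full motif began at -54 in CHGA and -79 in VGF, counted from the start site at +1, and 1.85% of all 35116 windows in the table hold it. The core alone was found at -17 in SCG5 and at -221 and -120 in CPE. A core, alone or inside the full motif, was in 4 of the 5 windows, and 24.6% of all windows hold one. CHGB lies on chromosome 20 and SCG2 on chromosome 2, and no window of theirs was used. Neither form was in the NPY window, which says only that these letters are absent there. CHGA and VGF, the 2 genes with the full motif, differed from untreated cells by 0.20 and 0.06 on the log2 scale at 5 µM, and neither passed the test described next.

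The arrays were alike as a whole. Array medians ran from 6.60 to 6.64 log2, and arrays correlated at 0.993 to 0.997 across tested probe sets within groups and at 0.994 to 0.997 between groups. The mean over the 18 spike-in controls was lowest on untreated replicate 1, at 8.70 log2, where the remaining 8 arrays had 9.04 to 9.45. Without that array the differences at 5 µM against untreated were 0.24 for CHGA, 0.23 for CHGB, 0.26 for SCG2, -0.01 for VGF, 0.22 for SCG5, -0.06 for NPY and 0.11 for CPE. At 0.5 nM against untreated NPY was then at 0.35 and CHGB at 0.16, and 0 of the 7 genes passed limma's threshold. Of 8 noradrenergic neuroblastoma markers with a probe set, 7 lay above the filter, among them PHOX2A, GATA3, ISL1, DBH and MYCN, and their summed level was 13.2 to 13.4 log2 in untreated arrays, 13.3 to 13.4 at 0.5 nM and 13.3 to 13.4 at 5 µM. The exception was TH, the first enzyme of catecholamine synthesis, at 5.58 log2. All 7 tested noradrenergic markers lay above 0 at 5 µM against untreated, where 38.1% of all probe sets did. GATA3, at 0.13 log2, was the 1 of them with limma's unadjusted p under 0.05 (adjusted p = 0.709), against 6.84% of all probe sets. Summed levels of markers of other cell types overlapped between the 3 groups, apart from epithelial markers. Signal was summed before taking log2, so bright markers weigh most. ANXA2, 1 of 4 tested mesenchymal and Schwann-like markers, stood at -0.22 log2 at 5 µM against untreated (limma's adjusted p = 0.367). CD74, 1 of 4 tested leukocyte markers, stood at -0.32 there (adjusted p = 0.478) and at -0.25 at 0.5 nM (adjusted p = 0.9999). Each was the 1 marker of its list with an unadjusted p under 0.05 at 5 µM, against 6.84% of all probe sets. The epithelial sum was 8.55 to 8.67 log2 in untreated arrays, 8.56 to 8.57 at 0.5 nM and 8.50 to 8.54 at 5 µM. Of the 6 epithelial markers, EPCAM, CDH1 and KRT19 lay below the filter. The 3 tested, ELF3, KRT8 and KRT18, stood at -0.24, -0.11 and -0.01 log2 at 5 µM against untreated, and none passed. By limma ELF3 had an unadjusted p of 0.00096 there (adjusted p = 0.208) and of 0.023 at 0.5 nM (adjusted p = 0.9999). It was the 1 epithelial marker under 0.05 in each, against 6.84% and 3.29% of all probe sets. Whether other cells had a part in the results was not tested.

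CHGA encodes chromogranin A, the main granin of chromaffin granules and the parent of vasostatin and catestatin. It read 12.35, 12.02 and 12.41 log2 in untreated arrays, 12.49, 12.39 and 12.46 at 0.5 nM, and 12.43, 12.41 and 12.52 at 5 µM. Untreated replicate 2 was low and the other 8 arrays lay close together. The 0.5 nM group overlapped the untreated group, and at 5 µM the lowest array equalled the highest untreated array, a tie that is counted as overlap. CHGA differed from untreated by 0.20 ± 0.09 log2 at 5 µM and by 0.19 ± 0.09 at 0.5 nM (SE, n = 3 in each group), and limma's adjusted p of 0.74 and 0.9999 did not pass 0.05. Without untreated replicate 2 the difference was 0.08 at 5 µM and 0.07 at 0.5 nM.

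CHGB encodes chromogranin B, a second major granule matrix protein. Its values were 8.67, 8.22 and 8.55 log2 in untreated arrays, 8.55, 8.60 and 8.48 at 0.5 nM, and 8.44, 8.52 and 8.89 at 5 µM. The lowest array was again untreated replicate 2 and the highest was 5 µM replicate 3, and the groups overlapped throughout. The difference from untreated was 0.14 ± 0.13 log2 at 5 µM (95% interval -0.15 to 0.42) and 0.07 ± 0.13 at 0.5 nM (SE, n = 3 in each group). At 5 µM it was -0.0004 without 5 µM replicate 3.

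SCG2 encodes secretogranin II, the precursor of the peptide secretoneurin. It read 7.50, 7.36 and 7.24 log2 in untreated arrays, 7.56, 7.50 and 7.45 at 0.5 nM, and 7.48, 7.54 and 7.66 at 5 µM. The highest untreated array lay above the lowest 5 µM array, so these groups overlapped by a narrow margin. The difference at 5 µM against untreated was 0.20 ± 0.07 log2 (SE, n = 3 in each group), 114.6% of the untreated level, with a 95% interval of 0.03 to 0.36. SCG2 had the smallest p of the 7 genes in this comparison and ranked 201 of 5830 probe sets, and limma's adjusted p was 0.68. Without untreated replicate 3 the difference was 0.13. At 0.5 nM the difference was 0.14 ± 0.07 (adjusted p = 0.9999), and 0.08 without untreated replicate 3.

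VGF encodes a neurotrophin-inducible secreted precursor whose peptides include TLQP-type fragments. Its probe set has the suffix x_at, which marks probes that may also bind other transcripts. VGF read 8.57, 8.76 and 8.80 log2 in untreated arrays, 8.78, 8.79 and 8.64 at 0.5 nM, and 8.75, 8.82 and 8.75 at 5 µM, and untreated replicate 1 was its lowest array. It varied least of the 7 genes, and its differences from untreated were 0.06 ± 0.07 log2 at 5 µM and 0.02 ± 0.07 at 0.5 nM (SE, n = 3 in each group). The 95% interval at 5 µM, -0.10 to 0.22, corresponds to 93.6% to 116.3% of the untreated level.

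SCG5 encodes secretogranin V, a chaperone-like protein that binds and holds inactive the prohormone convertase encoded by PCSK2. It read 8.40, 8.32 and 8.31 log2 in untreated arrays, 8.63, 8.30 and 8.28 at 0.5 nM, and 8.49, 8.57 and 8.54 at 5 µM. All 3 arrays at 5 µM lay above all 3 untreated arrays, while 0.5 nM replicate 1 was the highest array of all. SCG5 was the only 1 of the 7 genes with separate arrays in that comparison, where 2.86% of tested probe sets were separate in the higher direction. The difference was 0.19 ± 0.09 log2 (SE, n = 3 in each group, 95% interval -0.0008 to 0.38), and limma's adjusted p was 0.73. At 0.5 nM it was 0.06 ± 0.09, and -0.06 without 0.5 nM replicate 1.

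NPY encodes neuropeptide Y, a co-transmitter of noradrenaline in sympathetic neurons. It read 10.85, 10.36 and 10.53 log2 in untreated arrays, 11.01, 10.84 and 10.53 at 0.5 nM, and 10.50, 10.38 and 10.27 at 5 µM. All 3 arrays at 5 µM lay below all 3 at 0.5 nM, and the untreated arrays, between the extremes of both, overlapped each. NPY was 0.41 ± 0.14 log2 lower at 5 µM than at 0.5 nM, a difference of -0.41 (SE, n = 3 in each group) or 75.3% of the 0.5 nM level, with a 95% interval of -0.72 to -0.11. This was the largest difference of any of the 7 genes in the 3 comparisons and ranked 82 of 5830 probe sets by p, and limma's adjusted p of 0.918 did not pass.

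Against untreated cells NPY differed by -0.19 ± 0.14 log2 at 5 µM and by 0.22 ± 0.14 at 0.5 nM (SE, n = 3 in each group), with 95% intervals of -0.50 to 0.11 and -0.09 to 0.52. The order of its group means was 5 µM, untreated and 0.5 nM from low to high, at 10.38 ± 0.12, 10.58 ± 0.25 and 10.79 ± 0.24 log2 (SD, n = 3 each). Neighbours in that order did not differ beyond their spread. Without untreated replicate 1 the difference at 5 µM was -0.06, and without untreated replicate 2 it was -0.30. At 0.5 nM it was 0.35 without untreated replicate 1 or 0.5 nM replicate 3, and 0.11 without untreated replicate 2 or 0.5 nM replicate 1. Leaving out 1 array moved the difference between the doses between -0.54, without 0.5 nM replicate 3, and -0.30, without 0.5 nM replicate 1.

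CPE encodes carboxypeptidase E, which trims the basic residues left after prohormones are cut and also acts in sorting cargo to granules. It read 7.38, 7.34 and 7.34 log2 in untreated arrays, 7.54, 7.16 and 6.98 at 0.5 nM, and 7.35, 7.59 and 7.43 at 5 µM. The untreated arrays were nearly equal, whereas the 0.5 nM arrays spanned 0.57 log2 and reached above and below them. The difference was 0.10 ± 0.12 log2 at 5 µM and -0.13 ± 0.12 at 0.5 nM against untreated, and 0.23 ± 0.12 between 5 µM and 0.5 nM (SE, 3 arrays in each group); by limma the adjusted p was 0.916, 0.9999 and 0.994. These values moved with single arrays. At 0.5 nM against untreated the difference was -0.0043 without 0.5 nM replicate 3 and -0.29 without 0.5 nM replicate 1. Between the doses it was 0.11 without 0.5 nM replicate 3 and 0.39 without 0.5 nM replicate 1. At 5 µM against untreated it was 0.03 without 5 µM replicate 2 and 0.15 without 5 µM replicate 1.

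**Figure D1:**
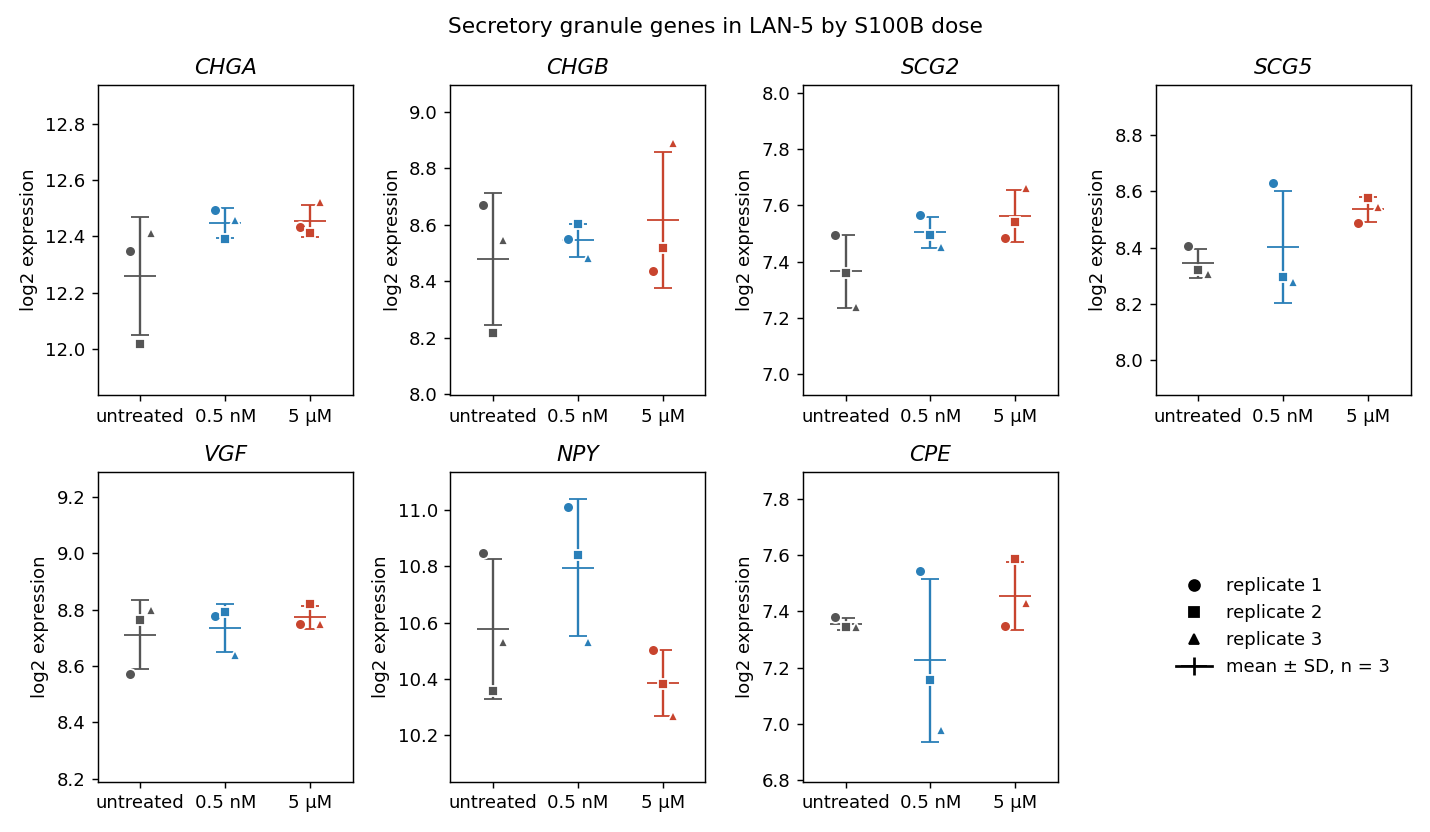
Log2 expression of each gene (vertical axis, the same span in every panel) by S100B dose (horizontal axis), with a point for each array and bars for mean ± SD over 3 arrays. SCG5 at 5 µM lay above all untreated arrays, NPY at 5 µM lay below all 0.5 nM arrays, and CHGA and CHGB had a low value in untreated replicate 2.

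The first comparison asked which of these transcripts the micromolar dose changed. At 5 µM against untreated, 0 of the 7 genes passed limma's adjusted p of 0.05, where 0.292% of 5830 tested probe sets did, all of them lower. SCG2 was the 1 gene with an unadjusted p under 0.05, against 6.84% of all probe sets in either direction and 1.49% in the higher direction. Of the 7, 6 had a difference above 0, against 38.1% of all probe sets, and NPY was the exception. The median over the 7 was 0.14 log2, against -0.02 over all tested probe sets. Their 95% intervals reached at most 0.50 log2 from 0, a 1.41-fold difference, which was the lower bound for NPY.

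The same genes were set against untreated cells at 0.5 nM. None of the 7 passed by limma, and 0 had an unadjusted p under 0.05, against 0% of all probe sets adjusted and 3.29% unadjusted. Again 6 of 7 lay above 0, against 40.9% of all, with CPE as the exception, and the median was 0.07 log2 against -0.02 over all. Arrays of both groups overlapped in all 7 genes, where 6.98% of all probe sets were separate in either direction. Both dose groups were set against the same 3 untreated arrays, so the 2 comparisons are not independent. Any difference outside -0.40 to 0.52 log2 at 0.5 nM lay beyond the 95% interval of each of the 7.

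**Figure D2:**
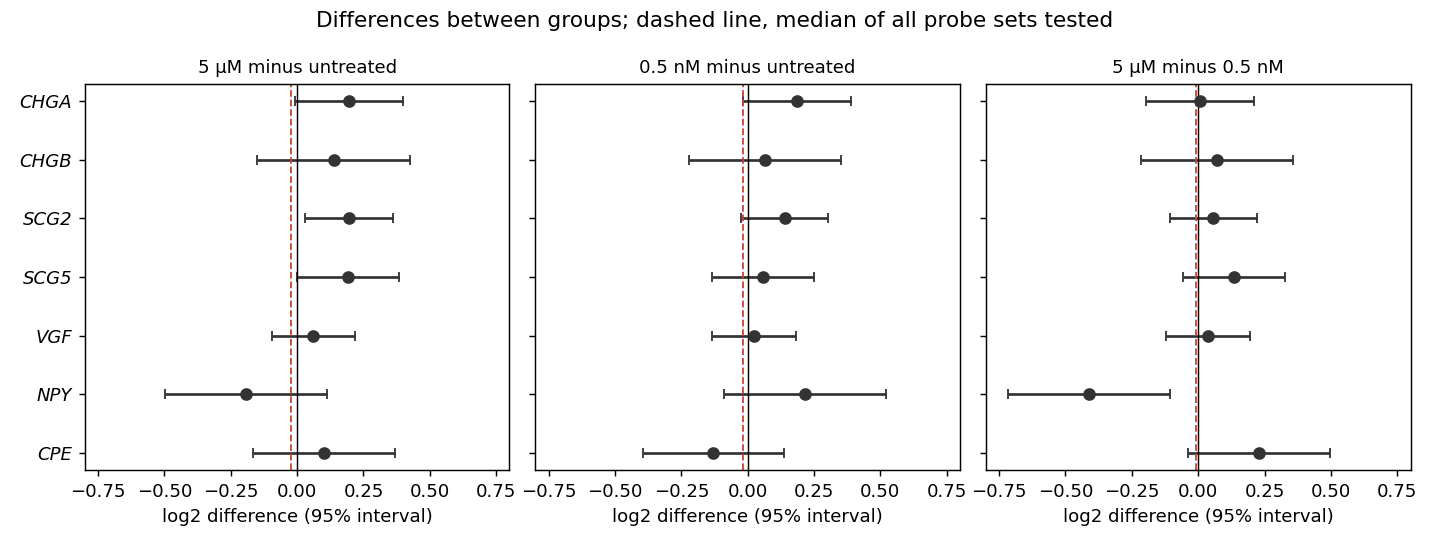
Log2 difference (horizontal axis) of each gene (vertical axis) with its 95% interval from limma's fit of all 9 arrays, for 5 µM minus untreated, 0.5 nM minus untreated and 5 µM minus 0.5 nM. Intervals excluded 0 for SCG2 in the first panel (0.03 to 0.36) and for NPY in the last (-0.72 to -0.11), before adjustment over all probe sets, and the dashed line marks the median of all probe sets tested.

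Between the doses, 0 of the 7 genes passed by limma, where 0.257% of tested probe sets did. NPY was the 1 gene with an unadjusted p under 0.05, against 4.65% of all probe sets in either direction and 2.92% in the lower direction, and the 1 gene whose arrays were separate, against 4.63% in that direction. The other 6 genes lay above 0, from 0.01 for CHGA to 0.23 for CPE, and 45% of all probe sets did so. A moderated F test across the 3 groups gave adjusted p of 0.984 for 6 genes and 0.99 for VGF. By that test 0 of the 7 passed, against 0.24% of all probe sets, and NPY alone had an unadjusted p under 0.05, against 4.84% of all.

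The 7 genes differed in how much they varied between arrays of the same group. The residual SD of NPY, 0.21 log2, was above that of 96.8% of tested probe sets, that of CHGB, 0.20, above 95.7%, and that of CPE, 0.18, above 93.9%. CHGA stood at 81.1% and SCG5 at 76.4%, whereas SCG2 and VGF lay near the middle at 58.6% and 51.3%. The spread sat in different groups. CPE had an SD of 0.02 log2 in untreated arrays, 0.29 at 0.5 nM and 0.12 at 5 µM, whereas CHGA had 0.21 in untreated arrays, 0.05 at 0.5 nM and 0.06 at 5 µM (SD, n = 3 each). For CPE, untreated replicates 2 and 3 held the same value, 7.3424, so its small SD there rests partly on a tie. Exact ties occurred in other genes too, such as VGF at 8.74911 in 5 µM replicates 1 and 3, and their origin was not tested. Over the 7 genes together, untreated replicate 2 lay 0.16 log2 below the genes' own means, at -0.16, and 0.5 nM replicate 1 lay above them at 0.15. The median deviation over all tested probe sets was 0.01 and 0.02 on these 2 arrays.

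**Figure D3:**
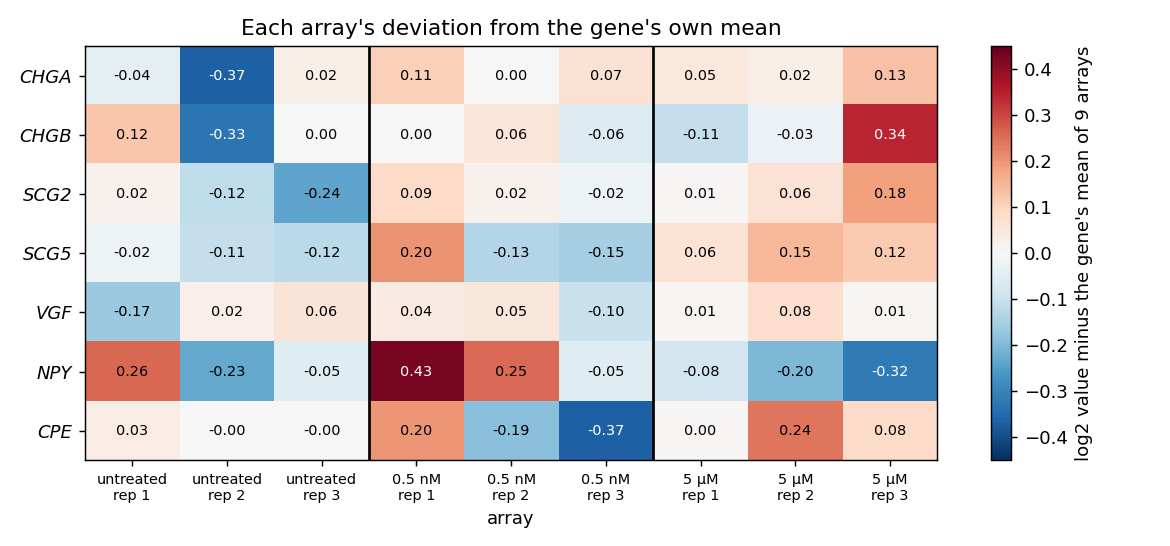
Deviation of each array (columns) from the mean of 9 arrays of each gene (rows), in log2, with red above and blue below that mean and black lines between dose groups. The largest deviations were 0.43 for NPY in 0.5 nM replicate 1, and -0.37 for CHGA in untreated replicate 2 and for CPE in 0.5 nM replicate 3.

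Pairs of these genes were compared across the 9 arrays. SCG5 and CPE had the highest correlation of the 21 pairs, with Pearson's r = 0.82 (exact permutation p = 0.00208, 0.0436 after Benjamini-Hochberg adjustment over the 21 pairs, two-sided, n = 9) and Spearman's rho = 0.96 (exact permutation p = 0.000165, adjusted 0.00347). Without the 2 arrays farthest from the median of SCG5, r was 0.68. In deviations from group means r was 0.93, a value led by the 0.5 nM arrays. There the SD was 0.20 log2 for SCG5 and 0.29 for CPE, with replicate 1 highest in both, at 8.63 and 7.54. In untreated arrays the SDs were 0.05 and 0.02, and at 5 µM 0.04 and 0.12, so these groups say little about the pair. For CPE, 2.23% of the other tested probe sets correlated as highly as SCG5 did, and for SCG5, 0.60% correlated as highly as CPE did. These shares are a description, since all values come from the same 9 arrays.

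**Figure D4:**
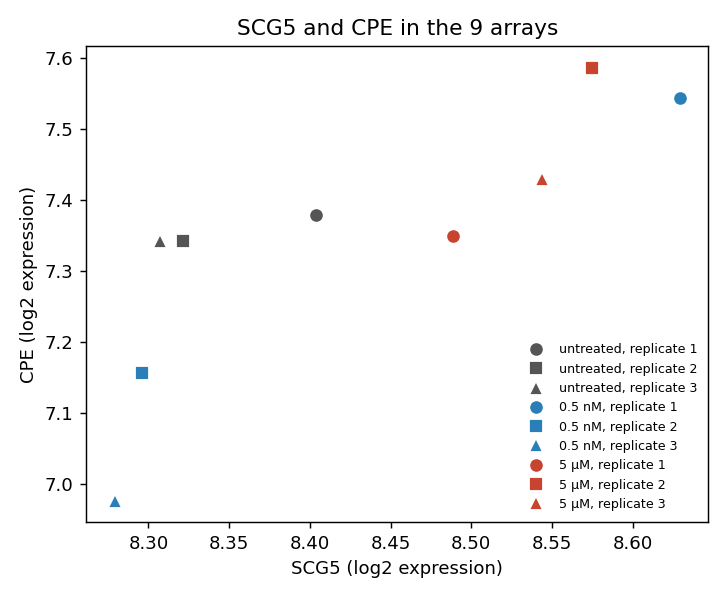
CPE against SCG5, both in log2 expression, with a point for each of the 9 arrays, coloured by dose and shaped by replicate number. The 0.5 nM arrays took both the highest SCG5 value (8.63) and the lowest CPE value (6.98), and the untreated arrays lay together at 7.34 to 7.38 on the CPE axis.

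No other pair passed after adjustment over the 21. CHGA and CHGB had r = 0.71 (exact permutation p = 0.0635, adjusted 0.444, n = 9) and rho = 0.26 (exact permutation p = 0.498, adjusted 0.945), and r turned to -0.65 without untreated replicate 2 and 5 µM replicate 3, so the relation rested on those arrays. SCG2 and SCG5 had r = 0.69 (exact permutation p = 0.0314, adjusted 0.33, n = 9) and rho = 0.71 (exact permutation p = 0.0371, adjusted 0.26). NPY had r between -0.23 and 0.21 with each of the other 6 genes. In deviations from group means its r was 0.61 with SCG5, 0.57 with CPE, 0.39 with CHGA and 0.38 with SCG2. It was 0.29 with CHGB and -0.15 with VGF there, and these values were not tested.

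The genes whose values were most like each of the 7 over the 9 arrays were listed as a description, by the highest Pearson's r, 2 for each. They were NUDC at 0.95 and TFAP2B at 0.95 for CHGA, SON at 0.96 and LUC7L3 at 0.94 for CHGB, and ARL6IP4 at 0.94 and ATP5IF1 at 0.88 for SCG2. For SCG5 they were DDX25 and RAD17, both at 0.94, and for VGF they were MYOZ1 at 0.94 and JUND at 0.92. NPY was closest to HAAO at 0.94 and MANF at 0.94, and CPE to ADPRM at 0.98 and PAPSS1 at 0.98. None of the 7 genes was among these for another.

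Other genes of the granule pathway were followed in 7 lists that name 165 genes, 128 of them with a probe set of a single symbol and 83 of them tested. In all 3 comparisons 0 genes of these lists rose or fell by limma over all probe sets. Few probe sets of any kind did so: 0.292% at 5 µM against untreated, 0% at 0.5 nM against untreated and 0.257% between the doses. Of the 16 tested genes of granins, processing and sorting, 12 lay above 0 at 5 µM against untreated, where 38.1% of all probe sets did. Their median was 0.09 log2, against -0.02 over all. That list holds 6 of the genes above, and all 6 are among the 12. This count and this median therefore partly repeat values already given. Of the 16, 2 had an unadjusted p under 0.05, both higher, against 6.84% of all probe sets in either direction and 1.49% in the higher direction. Those were SCG2 and cathepsin B, CTSB, a lysosomal protease, at 8.40 ± 0.06 log2 at 5 µM and 8.16 ± 0.11 in untreated cells (SD, n = 3 each), a difference of 0.24 ± 0.07 (SE) with limma's adjusted p of 0.478.

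SCG3, which encodes a granin that links chromogranin A to the granule membrane, differed by 0.17 ± 0.11 log2 at 5 µM against untreated (SE, n = 3 in each group) and was named after its value was seen. PCSK1N, the precursor of an inhibitor of a prohormone convertase, stood at 0.02, and the granule membrane protein PTPRN2 at 0.07. FURIN, a convertase of the constitutive pathway, stood at -0.15 ± 0.07 (adjusted p = 0.746). PAM, which amidates peptides, was at 0.12 ± 0.07 between 5 µM and 0.5 nM. PCSK7, another convertase, was at 0.14 ± 0.07 at 0.5 nM against untreated. None of these passed.

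Among neuropeptides and peptide hormones, 18 of the 34 with a probe set lay below the filter, among them VIP and PENK. Of the 16 tested, 5 lay above 0 at 5 µM against untreated, where 38.1% of all probe sets did, with a median of -0.03 log2. An unadjusted p under 0.05 was found for 3 of the 16, 1 higher and 2 lower, against 6.84% of all probe sets. The vasodilator peptide adrenomedullin, ADM, stood at 0.24 ± 0.07 log2 (SE, 3 arrays in each group, adjusted p = 0.4) and the opiomelanocortin precursor POMC at -0.24 ± 0.10 (adjusted p = 0.707). The third was GAST, the gastrin precursor, at -0.17 ± 0.07 (adjusted p = 0.707), which was named after its value was seen. Between 5 µM and 0.5 nM, 4 of the 16 had an unadjusted p under 0.05, 1 higher and 3 lower, against 4.65% of all probe sets. ADM was at 0.28 ± 0.07 (adjusted p = 0.342), POMC at -0.27 ± 0.10 (adjusted p = 0.983) and NPY, above, at -0.41. The fourth, NMB, was at -0.13 ± 0.06 (adjusted p = 0.994) and was named after its value was seen. NMU and TAC3, the other peptides with the highest signal, stood at -0.19 and -0.01 at 5 µM against untreated. At 0.5 nM against untreated the 2 genes with the smallest p apart from NPY were HCRT at -0.13 and PNOC at 0.10. POMC and HCRT were dim, at 6.11 and 6.08 log2 over the 9 arrays, near the filter level of 5.95. At 5 µM POMC averaged 5.94, just under that level.

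Peptide receptors were mostly dim: 12 of 20 lay below the filter, among them the NPY receptors NPY1R, NPY2R and NPY5R at 4.78, 5.57 and 5.78 log2. Of the 8 tested, 0 lay above 0 at 5 µM against untreated, where 38.1% of all probe sets did. The median was -0.10 log2, against -0.02 over all. An unadjusted p under 0.05 was found for 2 of the 8, both lower, against 6.84% of all probe sets in either direction and 5.35% in the lower direction. RAMP1, a partner of the calcitonin-like receptor, stood at -0.20 ± 0.06 log2 (SE, 3 arrays in each group, adjusted p = 0.456) and the somatostatin receptor SSTR1 at -0.15 ± 0.06 (adjusted p = 0.692). SSTR1 and VIPR1 stood at -0.10 and -0.09 at 0.5 nM against untreated, and VIPR2 at -0.12 between 5 µM and 0.5 nM. GRPR, the receptor of gastrin-releasing peptide, was at -0.13 at 5 µM against untreated.

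Catecholamines are stored in the same granules. Of the 7 tested genes for catecholamine content, 4 lay above 0 at 5 µM against untreated, where 38.1% of all probe sets did. Their median was 0.01 log2, against -0.02 over all. SLC18A1, a vesicular monoamine transporter, stood at 0.21 ± 0.06 log2 (SE, 3 arrays in each group, adjusted p = 0.463), while its relative SLC18A2 lay below the filter at 5.05. DBH, the granule enzyme that makes noradrenaline, was at 0.01 ± 0.13 and GCH1, which makes the cofactor of tyrosine hydroxylase, at -0.08 ± 0.07. At 0.5 nM against untreated, SLC18A1 was at 0.10 and DBH at 0.15.

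Genes of granule docking and release had a median of -0.01 log2 over 17 tested genes at 5 µM against untreated. UNC13B, a priming factor, stood at 0.19 ± 0.08 log2 (SE, 3 arrays in each group, adjusted p = 0.7) and the annexin ANXA7 at -0.14 ± 0.06. SNAP25, a SNARE protein of the plasma membrane, averaged 9.68 ± 0.20 log2 at 0.5 nM and 9.90 ± 0.003 in untreated cells (SD, n = 3 each), a difference of -0.22 ± 0.09 (SE, adjusted p = 0.9999). Between 5 µM and 0.5 nM it was at 0.27 ± 0.09 (adjusted p = 0.945) and NSF, which takes SNARE complexes apart, at 0.16. DOC2A, a calcium sensor, was at -0.12 at 0.5 nM against untreated.

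The proton pump of the granule membrane acidifies it, which prohormone cutting needs. Its 10 tested subunit genes had a median of -0.06 log2 at 5 µM against untreated, against -0.02 over all. Of the 10, 3 lay above 0, where 38.1% of all probe sets did. ATP6V1D stood at 0.12, ATP6V1B2 at -0.15, ATP6V0C at 0.01 and ATP6V1G1 at -0.09. ATP6V1A was at -0.14 at 0.5 nM against untreated and at 0.11 between the doses. None of the 10 had an unadjusted p under 0.05 in any comparison. Of all probe sets 6.84% did at 5 µM against untreated, 3.29% at 0.5 nM against untreated and 4.65% between the doses.

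Regulators known to act on granin genes were tested for 9 genes, and 5 more, among them REST at 4.98 log2, lay below the filter. The median of the 9 at 5 µM against untreated was 0.02 log2, and 0 had an unadjusted p under 0.05, against 6.84% of all probe sets. EGR1, an immediate early factor, stood at 0.11 ± 0.07 log2, the CREB coactivator CREBBP at 0.17 ± 0.10 and the factor ATF2 at -0.22 ± 0.14 (SE, 3 arrays in each group, adjusted p of 0.785, 0.8 and 0.804). EGR1 was dim, at 6.25 log2 over the 9 arrays. The protein kinase A subunits PRKAR1A and PRKAR2B stood at 0.07 and 0.02. Since RNA was taken from whole cultures, fewer cells of a kind and less RNA per cell cannot be told apart in any of these values.

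**Figure D5:**
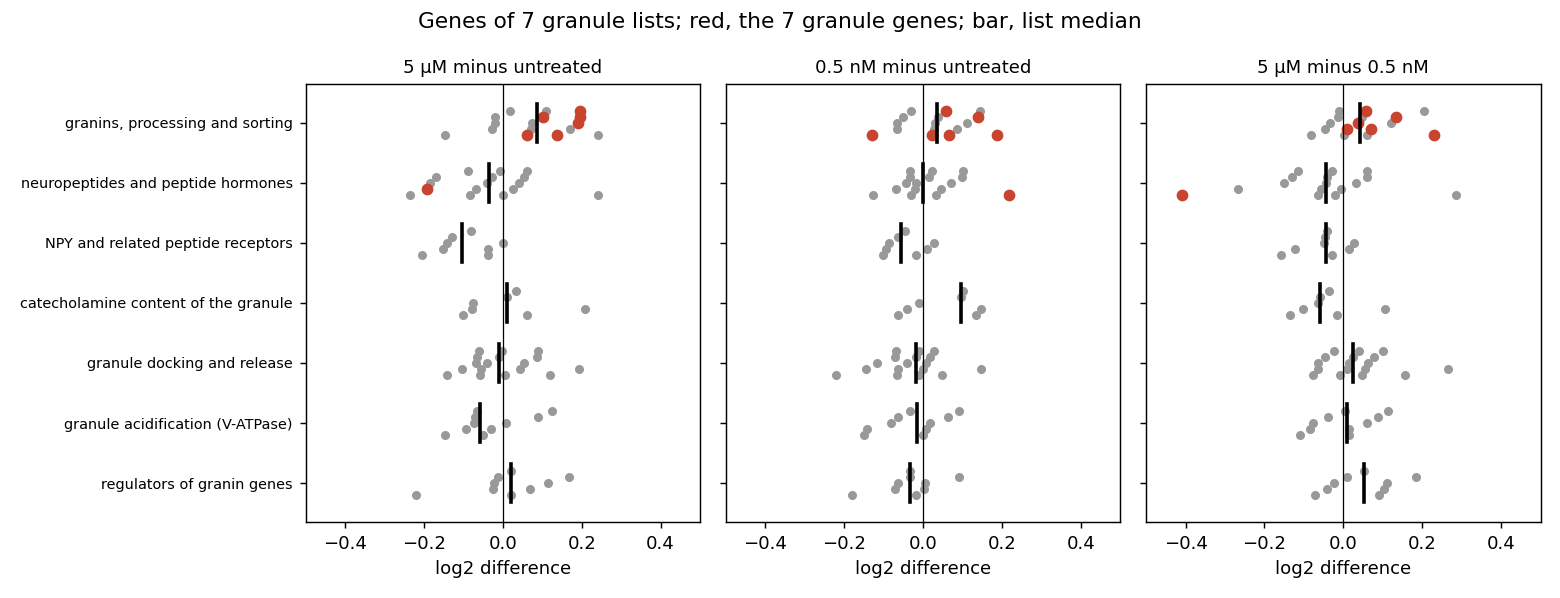
Log2 differences (horizontal axis) of the 83 tested genes in 7 granule lists (vertical axis) for 5 µM minus untreated, 0.5 nM minus untreated and 5 µM minus 0.5 nM, with the 7 granule genes in red, other genes in grey and a black bar at each list's median. The median of granins, processing and sorting, a list that includes most of the red genes, lay at 0.09 in the first panel. That of the peptide receptors lay at -0.10. Of these genes 0 passed in any panel, where 0.292%, 0% and 0.257% of all probe sets passed, in the order of the panels.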

How the data were processed

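Per the submitters' processing notes, the deposited log2 values were made by the authors with GCRMA, which removes background estimated from probe sequence, scales arrays to each other and gives 1 summary per probe set; no version or setting is given there. Such correction may compress differences near background, which was not tested. The log2 scale was read from the values, 4.37 to 14.5. After removal of 47 control probe sets, the dimmest 33.3% by mean over 9 arrays were left out (2916 of 8746). Symbols came from the platform annotation, updated by Entrez identifier. The fit, in limma 3.58.1 and R 4.3.3, took all 9 arrays with 1 factor of 3 groups and no covariate (lmFit, eBayes), with Benjamini-Hochberg adjustment over 5830 probe sets and a threshold of 0.05. The procedure was tested on simulated data with independent noise, which holds no pattern shared between arrays and so cannot speak to such patterns here. With 3 arrays against 3, the smallest p that exact permutation allows is 0.1. No scanner intensities were used, and precision is set by how few arrays there were: the median half-width of a 95% interval was 0.156 log2. Differences of list genes are those of the probe set of highest mean. Named list genes were the 2 with the smallest p in each comparison and the 2 with the highest mean; genes most alike were the 2 with the highest Pearson's r. Alternatives were other filters, normalization, variance models, a replicate block and leaving out each array. The genes, lists and tests were chosen with earlier results of these data known. Coordinates and sequences are from RefSeq on GRCh38.p14.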

Additional observations from a re-analysis of the deposited data

How the results depend on the processing

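Each of the 21 differences of the 7 genes was recomputed under 17 alternatives, and 0 of these 357 values passed limma's threshold; the lowest adjusted p was 0.212. In all, 11 values changed sign, 10 of them on leaving out 1 array. At 5 µM against untreated, leaving out 1 array gave -0.00036 to 0.233 for CHGB (lowest without 5 µM replicate 3) and -0.0092 to 0.105 for VGF (lowest without untreated replicate 1). At 0.5 nM against untreated it gave -0.065 to 0.162 for CHGB (without untreated replicate 2), -0.057 to 0.118 for SCG5 (without 0.5 nM replicate 1) and -0.046 to 0.072 for VGF (without untreated replicate 1), with VGF also at -0.0038 without 0.5 nM replicate 2. For 5 µM against 0.5 nM it gave -0.024 to 0.032 for CHGA (without 5 µM replicate 3, and also below 0 without 0.5 nM replicate 2), -0.067 to 0.160 for CHGB (without 5 µM replicate 3) and -0.011 to 0.065 for VGF (without 0.5 nM replicate 3). With array weights CHGB was at -0.015 in that comparison.

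The counts of all probe sets past the threshold moved more. Leaving out 1 array gave 4 to 17 at 5 µM against untreated, against 17 with all arrays (4 without untreated replicate 1 or 3), 3 to 14 for 5 µM against 0.5 nM, against 15 (3 without 0.5 nM replicate 3), and 3 to 15 across the 3 groups, against 14 (3 without 5 µM replicate 2). Fitting only the 2 groups compared gave 7 at 5 µM against untreated and 4 between the doses, with fewer arrays in the fit, and unmoderated variance gave 1 in each of these and 1 across the groups. Under none of the 17 alternatives did a gene of the granule lists pass. Taking every probe set of a gene gave no further value for the 7 genes, since each has 1.

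With the replicate number as a block, 15 probe sets passed at 5 µM against untreated, 15 between the doses and 16 across the groups, and 0 of the 7 genes in any comparison. Of 9 pairs of arrays with the same number, 4 had deviations correlated above 0.1 (-0.0004 to 0.33), and pairs of unlike number ran from -0.37 to 0.35. The arrays numbered 3 correlated with each other at 0.30 to 0.33, and below 0 with every array of another number in another group. As 4 of 9 arrays correlated best with their own number, the numbers were not taken to pair the samples. NPY, CHGB and CPE, with the widest spread within groups, had 95% half-widths of 0.30, 0.29 and 0.27 log2, which limits what 3 arrays a group could show for them.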
